A study of Mus musculus with 24 samples.

Results

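The comparison described here is between Lin-Sca1+Kit+ (LSK) cells of mice in which the MLL-ENL fusion was switched on at birth and LSK cells of wild-type (WT) mice, all taken from bone marrow at postnatal day 28 (P28). Its members were chosen by label alone, as the 4 libraries labelled P28 MLL-ENL LSK (P0 ME) and the 4 labelled P28 WT LSK, which are 8 of the 24 libraries of the series. The study title places the work in MLL::ENL leukemia, fetal protection against it, and the methyltransferase MLL3, and the design text names a Tet-off model with a human MLL::ENL transgene and 4 biological replicates per age of induction and of analysis. In a Tet-off system the transgene is silent while a tetracycline drug is given and is expressed once the drug is withdrawn. The P0 in the label is read as induction on the day of birth, so these cells were analysed 28 days after it. The labels give only the genotype words WT and MLL-ENL. Strain, sex, the gene driver of the Tet-off activator and the alleles that the WT mice carry are not given in the sources used here, and neither is it stated whether a library came from 1 animal or a pool. P-values therefore measure spread between libraries. The fit used for calls estimated that spread over all 24 libraries of the series, not over these 8 alone. Another P28 marrow group of 4 libraries, MLL-ENL induced before birth and labelled P28 MLL-ENL LSK (E10.5 ME), is used at the end for the timing of induction.

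MLL (gene Kmt2a) is a histone H3 lysine 4 methyltransferase that keeps Hox genes active in blood stem and progenitor cells. In MLL-ENL its amino-terminal, DNA-binding part is joined to ENL (gene Mllt1), a reader of acetylated histones that brings in the transcription elongation machinery and the methyltransferase DOT1L. The fusion is known for driving acute leukemia through targets such as Hoxa9, Meis1 and Mecom. LSK cells hold the blood stem cells and the earliest multipotent progenitors of the marrow.

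The 8 libraries held 31233688 to 75945220 gene counts in WT and 47962965 to 61331788 in P0-induced MLL-ENL. The spread between replicates was much wider in WT, at 73.0% against 27.5% as the biological coefficient of variation that edgeR gives. WT library 4 lay nearest to the MLL-ENL libraries, with Pearson correlations of log2 CPM across genes of 0.9549 to 0.9590 to them, where the other WT libraries gave 0.8986 to 0.9273. CPM below are TMM-scaled CPM, that is, read counts relative to library size. The sort markers were present in both groups. Kit averaged 688 ± 72.1 CPM in WT and 938 ± 110 in P0-induced MLL-ENL, and Ly6a, which codes for Sca-1, 296 ± 30.6 and 224 ± 18.9 CPM (SD, n = 4 each). Neither was called in the fit of all libraries (edgeR adjusted p = 0.566 for Kit and 0.274 for Ly6a). The groups did not overlap for either gene, with Kit higher and Ly6a lower in MLL-ENL. Both were called with only the 2 groups fitted (edgeR adjusted p = 0.00840 and 0.00194), where 27.9% of all genes were. Markers of mature cells differed widely in level, with mean CPM in WT and in P0-induced MLL-ENL of 9.11 and 12.7 for Itgam of myeloid cells, 0.0926 and 0.00391 for Ly6g of neutrophils, 574 and 289 for Lyz2 of myeloid cells, 237 and 82.5 for the globin gene Hbb-bt, 263 and 409 for the immunoglobulin gene Ighm and 134 and 129 for Cd74 of antigen-presenting cells. Expression of the human transgene was not analysed here, since the table lists mouse genes.

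Of 23059 genes tested, 362 were called at an edgeR adjusted p under 0.05, which is 1.57% of them, with 114 higher (0.494%) and 248 lower (1.08%). Among the rises were Kmt2a, the histone chaperone gene Supt6, and 4 of 21 histone demethylase and 4 of 32 chromatin remodelling genes. Among the falls were 37 of 79 cytosolic ribosomal protein genes, 8 of 15 mitochondrially encoded genes, 6 of 68 nuclear oxidative phosphorylation genes and 5 of 30 nuclear and host-gene long noncoding RNAs. Of all calls, 18 were higher and 154 lower by at least 2-fold. The higher genes were 113 protein-coding genes and 1 long noncoding RNA. The lower genes held 144 protein-coding genes, 70 processed pseudogenes, 3 transcribed processed pseudogenes and 6 unprocessed pseudogenes. By symbol, 26 pseudogenes were of ribosomal protein genes. Counts of a pseudogene cannot be told from those of its parent gene where reads match both. In 360 of the 362 genes every library of one group lay above every library of the other, which was true of 24.8% of all genes tested.

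The number of calls depended on the libraries and on the fit. A total of 323 of the 362 adjusted p-values lay between 0.03 and 0.05, and 4648 genes had an unadjusted p under 0.05. Leaving out any 1 of WT libraries 1 to 3 or of the 4 MLL-ENL libraries left 7 to 10 calls, and leaving out WT library 4 gave 649, 332 of them among the 362. With the genes tested held the same, the falls of ribosomal protein genes numbered 48 without WT library 4 and 0 without any other 1 of the 8, and the rises of histone demethylase genes 4 and 0. Mitochondrially encoded falls numbered 10 and 1, and long noncoding RNA falls 5 and 2. With only the 2 groups fitted 5196 of 18601 genes (27.9%) were called, 13.8% of all tested higher and 14.1% lower, so that 49.6% of the calls were higher, and with the 4 P28 groups 3944 of 20823 (18.9%), 57.1% higher. The share of calls that were higher was 31.5% in the fit of all libraries, 13.8% with RLE scaling and 14.4% with library totals. All 362 genes were also called, with the same sign, in the fit of the 2 groups, in that of the P28 groups and with voom weights per group (20.7% of genes called), and 275 in the fit (1.61% called) with offsets for GC content and transcript length. Below, a gene is said to rise or fall where it was called in the fit of all libraries. Of the called genes named below, Kmt2a, Mir99ahg, Kcnq1ot1, mt-Co1, Sva and 4632427E13Rik kept the call in all 8 fits that left out 1 library, Pde4d and Prdx4 in 7 and Fndc3a in 5, and the others in at most 1. Across the other 13 alternatives 117 of the 362 were called in every one. Of the rises named below, RLE scaling ended the calls of Supt6, Kdm3b, Kdm5a, Chd1, Smarca5, Ep300, Med13l, Sf3b1, Nop14, Junb and Fkbp5 (edgeR adjusted p = 0.0501 to 0.0625). Scaling by library totals ended those of Supt6, Phf8, Kdm3a, Kdm3b, Kdm5a, Chd1, Ep300, Med13l, Dhx8, Sf3b1, Nop14, Pygm and Vps54. Without a filter on low counts the calls of Supt6, Phf8, Kdm3b, Kdm5a, Chd1, Baz2b, Ep300, Med13l, Eif4g1, Dhx8, Sf3b1, Nop14, Fkbp5 and Junb among the rises and of Malat1, mt-Rnr2, Dleu2, H1f5, Adipoq and Gimap1os among the falls were lost.

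**Figure D1:**
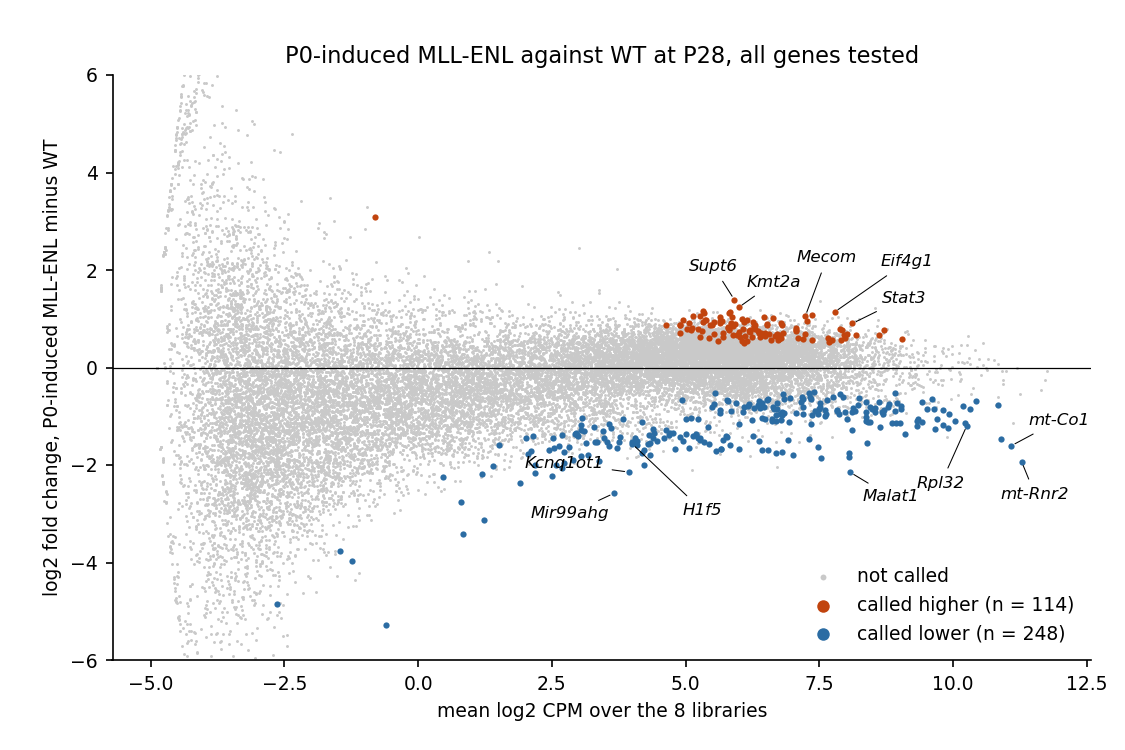
Each point is 1 gene, with its mean log2 CPM over the 8 libraries on the x axis and its log2 fold change, P0-induced MLL-ENL minus WT, on the y axis. The 114 genes called higher have a median log2 fold change of 0.783 and the 248 called lower reach down to -5.29 (Lvrn), while 120 genes of low counts, 2 of them called, lie beyond the plotted range of 6.

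Kmt2a itself, on chromosome 9 at 44803355 to 44881296 (GRCm38), rose. It stood at 36.2, 44.1, 39.9 and 46.4 CPM in WT libraries 1 to 4 and at 95.1, 93.5, 108 and 95.6 CPM in the MLL-ENL libraries. The 2 groups were far apart and each was tight. The log2 fold change was 1.23 (SE 0.17, edgeR adjusted p = 0.000873), and it was called in all 13 alternative fits, with 0.89 after offsets for GC content and length. Mllt1, the gene of the fusion partner, was at 72.5 ± 10.7 CPM in WT and 109 ± 11.1 in MLL-ENL (SD, n = 4), in groups that did not overlap. Its log2 fold change of 0.58 was not called in the fit of all libraries (edgeR adjusted p = 0.21). Mllt1 was called with only the 2 groups fitted (edgeR adjusted p = 0.00392). Reads of the human transgene that match the mouse genes would be counted under Kmt2a or Mllt1, and the 2 sources cannot be told apart in these counts. Kmt2a was the only called member among 21 genes of the COMPASS methyltransferases and their partners in the fit of all libraries, whose median log2 fold change was 0.37. Kmt2c, the gene for MLL3, gave 31.5 ± 4.75 and 49.0 ± 5.55 CPM in groups that did not overlap, with a log2 fold change of 0.64 that was not called in the fit of all libraries (edgeR adjusted p = 0.134) and was called with only the 2 groups fitted (edgeR adjusted p = 0.00566). Dpy30, a small core subunit of these complexes, lay on the other side, at 190 ± 26.9 CPM in WT and 98.6 ± 2.11 in MLL-ENL (edgeR adjusted p = 0.0675).

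Supt6 had the largest log2 fold change among genes called higher that averaged 3 or more in log2 CPM. Its product is a histone chaperone that travels with elongating RNA polymerase II. Its CPM was 37.8, 27.3, 39.6 and 45.3 in the WT libraries and 92.8, 107, 105 and 88.7 in the MLL-ENL libraries, with no overlap (log2 fold change 1.39, SE 0.36, edgeR adjusted p = 0.0499). The Supt6 call was lost with RLE scaling (edgeR adjusted p = 0.053), with library totals, and when low counts were not filtered. Among the 39 tested genes of the elongation and DOT1L machinery, 2 rose and 0 fell, with a median log2 fold change of 0.44, against -0.09 over all genes tested and 0.15 over those averaging 3 or more in log2 CPM. The other was Aff1, a scaffold of the super elongation complex and itself a common fusion partner of MLL, at 33.4 ± 5.24 CPM in WT and 61.3 ± 7.70 in MLL-ENL (SD, n = 4, edgeR adjusted p = 0.0426). The Aff1 call was lost with offsets for GC content and length (edgeR adjusted p = 0.076). The fit of only the 2 groups called 23 of the 39 higher and 1 lower, where 13.8% and 14.1% of all genes were. Of the 10273 genes averaging 3 or more in log2 CPM, that fit called 2508 higher and 1811 lower. Polr2b, the catalytic-core subunit gene of RNA polymerase II, lay between 138 and 146 CPM in WT and between 204 and 224 in MLL-ENL, just outside the threshold (edgeR adjusted p = 0.0561).

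Genes of 3 other chromatin lists were called in the higher direction. Of 21 histone demethylase genes 4 rose and 0 fell (median log2 fold change 0.69, 17 higher in the fit of the 2 groups), of 32 chromatin remodelling genes 4 rose and 0 fell (median 0.55, 25 higher), and of 22 histone acetyltransferase and coactivator genes 2 rose and 0 fell (median 0.72, 15 higher). The fit of the 2 groups called 13.8% of all genes higher, and 2508 of the 10273 genes averaging 3 or more in log2 CPM. Phf8, which removes methyl groups from histone H3 lysine 9 and is known to act on gene activation, stood at 27.7, 21.1, 25.3 and 34.6 CPM in WT and 64.0, 57.6, 65.3 and 55.1 in MLL-ENL (log2 fold change 1.15, SE 0.29, edgeR adjusted p = 0.0468). Kdm3a, another lysine 9 demethylase, went from 55.7 ± 13.3 to 107 ± 2.24 CPM, and the lysine 4 demethylase Kdm5a from 89.5 ± 7.31 to 137 ± 10.1 CPM (SD, n = 4). The other demethylase call was Kdm3b. The remodelling ATPases that rose were Chd4 of the NuRD complex, at 102 ± 9.94 and 173 ± 9.13 CPM, Smarca5 of the ISWI family, at 186 ± 29.6 and 319 ± 23.9 CPM, and Chd1, at 65.3 ± 9.98 and 106 ± 12.5 CPM, joined by the bromodomain gene Baz2b at 86.9 ± 7.37 and 128 ± 6.95 CPM. In each of these 4 the highest WT library lay below the lowest MLL-ENL library. The acetyltransferase gene Ep300 rose from 45.5 ± 11.2 to 83.9 ± 5.38 CPM (edgeR adjusted p = 0.0492), and Med13l of the Mediator kinase module from 43.3 ± 5.94 to 74.3 ± 11.5 CPM (edgeR adjusted p = 0.0496). Under the GC and length offsets the calls of Med13l and Kdm3b were lost (edgeR adjusted p = 0.32 and 0.0933). With RLE scaling 2 demethylase, 2 remodelling and 0 acetyltransferase and coactivator genes were called higher, and with library totals 1, 4 and 0, while all 3 list medians stayed above 0. Under the GC and length offsets the medians were lower, at 0.46, 0.46 and 0.43. The median over all genes averaging 3 or more in log2 CPM was 0.06 under those offsets.

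The other rises named by size, by p or by list differed in function. Eif4g1, the scaffold of the cap-binding translation initiation complex, was at 135, 127, 142 and 195 CPM in WT and at 323, 354, 332 and 309 in MLL-ENL, more than 2-fold apart in the mean (log2 fold change 1.14, SE 0.27, edgeR adjusted p = 0.0389). The spliceosome helicases Dhx8, with 38.4 ± 8.64 and 83.9 ± 6.34 CPM, and Dhx38, with 20.2 to 36.7 CPM in WT and 57.0 to 65.6 in MLL-ENL, rose by log2 fold changes of 1.13 and 1.12. Ice1, part of the little elongation complex that serves small nuclear RNA genes, rose from 24.6 ± 5.93 to 51.4 ± 3.16 CPM. Of 37 splicing factor genes only Sf3b1, which recognises the branch point and is often mutated in myelodysplasia, was called, at 321 ± 48.6 and 549 ± 22.5 CPM (edgeR adjusted p = 0.0497). The nucleolar genes Heatr1 and Nop14, which serve the making of ribosomal RNA, were the 2 called members of 35 ribosome biogenesis genes, with log2 fold changes of 0.98 and 0.66. Fndc3a, a membrane protein gene, was at 30.5, 35.5, 40.7 and 48.0 CPM in WT and 81.0, 86.5, 98.7 and 75.9 in MLL-ENL (log2 fold change 1.14, SE 0.20, edgeR adjusted p = 0.00983). The remaining rises named by size were Fkbp5, a cochaperone of the glucocorticoid receptor, Pygm, a glycogen phosphorylase, and Vps54, a Golgi tethering gene, with log2 fold changes of 1.09, 1.05 and 1.03. Fkbp5 was uneven within MLL-ENL, at 187 and 181 CPM in libraries 1 and 2 and 312 and 301 in libraries 3 and 4. Phf3 and Stk38, at log2 fold changes of 0.86 and 0.71, were named for their low p, 0.0245 and 0.0272 after adjustment by edgeR.

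**Figure D2:**
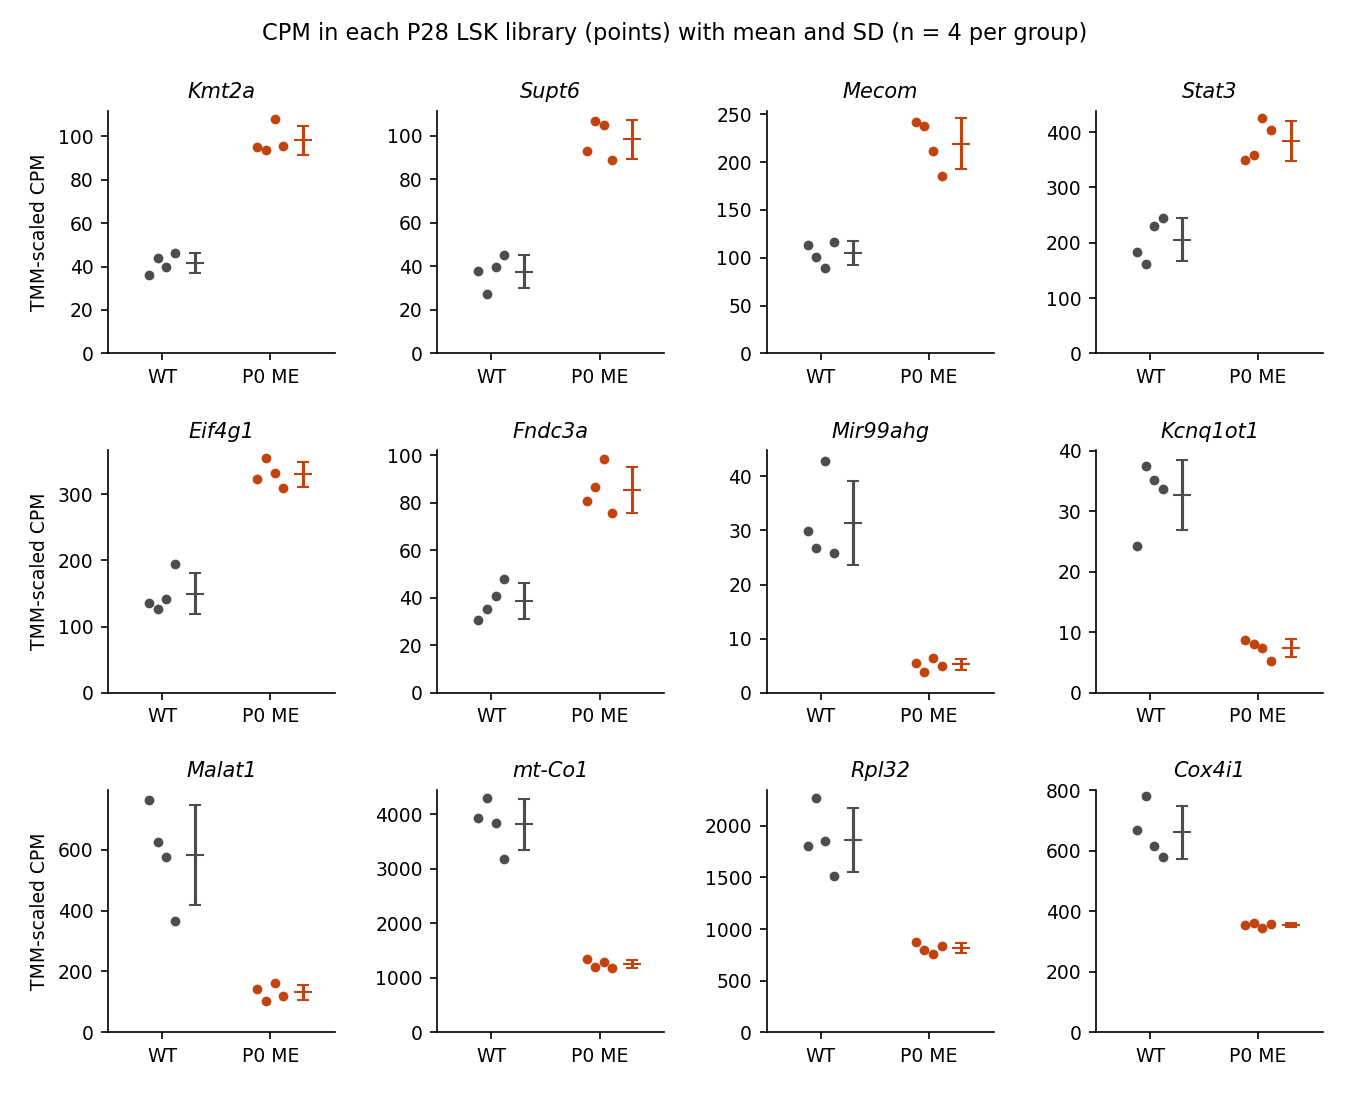
TMM-scaled CPM (y axis, linear from 0) in each of the 4 WT and 4 P0-induced MLL-ENL (P0 ME) libraries for 12 genes, with the mean and SD beside the points. In all 12 panels the 2 groups do not overlap, with Kmt2a, Supt6, Mecom, Stat3, Eif4g1 and Fndc3a higher and Mir99ahg, Kcnq1ot1, Malat1, mt-Co1, Rpl32 and Cox4i1 lower in MLL-ENL.

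Among 31 tested MLL-fusion target genes, 1 rose and 0 fell, and 26 had a log2 fold change above 0 (median 0.43). The call was Mecom, on chromosome 3 at 29951296 to 30548008, which codes for the stem cell transcription factor EVI1 and marks poor-risk MLL leukemia. It stood at 113, 101, 89.7 and 117 CPM in WT and 242, 238, 212 and 185 CPM in MLL-ENL, with no overlap (log2 fold change 1.06, SE 0.24, edgeR adjusted p = 0.0375). The best-known targets were named here after their values were seen. Hoxa9 was at 124, 118, 115 and 134 CPM in WT and at 177, 180, 167 and 160 in MLL-ENL, a log2 fold change of 0.47 (SE 0.17) that was not called in the fit of all libraries (edgeR adjusted p = 0.12) and was called with only the 2 groups fitted (edgeR adjusted p = 0.00227). Hoxa10, its neighbour, and Mef2c, a myeloid and lymphoid transcription factor, gave log2 fold changes of 0.56 and 0.43 with groups that did not overlap, and edgeR adjusted p-values of 0.137 and 0.134 with all libraries and of 0.00271 and 0.0067 with only the 2 groups. Meis1, the Hox cofactor, was at 329 ± 21.8 and 379 ± 22.6 CPM (log2 fold change 0.20, SE 0.19, edgeR adjusted p = 0.585). Flt3, a receptor of multipotent progenitors, was at 1175 ± 59.3 and 1348 ± 124 CPM (edgeR adjusted p = 0.782) and its groups overlapped. Under the GC and length offsets the log2 fold changes of Meis1 and Flt3 turned to -0.06 and -0.14. In the fit of the 2 groups 13 of 30 list members were called higher and 1 lower, where 13.8% and 14.1% of all genes were. Of the 10273 genes averaging 3 or more in log2 CPM, that fit called 2508 higher and 1811 lower.

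Of 40 stem cell genes 1 rose, which was again Mecom, and 1 fell (median log2 fold change 0.17, and -0.09 under the GC and length offsets). The fall was Ifitm1, an interferon-inducible membrane protein gene, at 904, 1123, 1003 and 915 CPM in WT and 562, 582, 510 and 532 in MLL-ENL (log2 fold change -0.85, SE 0.22, edgeR adjusted p = 0.0468). Of 36 type I interferon response genes edgeR called 0, with 6 higher and 1 lower at an unadjusted p under 0.05, DESeq2 called 1 higher, and the fit of the 2 groups called 8 higher and 3 lower, where it called 13.8% and 14.1% of all genes. Over all 23059 genes 4648 had an unadjusted p under 0.05, and DESeq2 called 544 higher and 1233 lower. Procr, a surface marker of long-term stem cells, was at 86.3 ± 5.44 and 76.6 ± 7.65 CPM (edgeR adjusted p = 0.577), and Cd34 at 1237 ± 74.2 and 1056 ± 74.4 CPM (edgeR adjusted p = 0.569). The Procr groups overlapped. Those of Cd34 did not, and Cd34 was called lower with only the 2 groups fitted (edgeR adjusted p = 0.0142). Stat3, a transcription factor downstream of interleukin 6 family receptors, was the 1 call among 35 cytokine receptor and signalling genes, at 184, 162, 231 and 244 CPM in WT and 349, 359, 425 and 403 in MLL-ENL, with no overlap (log2 fold change 0.91, SE 0.19, edgeR adjusted p = 0.0308). Junb, an AP-1 subunit, was the 1 call among 27 immediate early genes, at 35.1 ± 3.49 and 53.3 ± 2.28 CPM, and was lost with offsets for GC content and length (edgeR adjusted p = 0.103).

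With predicted models and pseudogenes left out, the 3 largest falls among called genes averaging 3 or more in log2 CPM were in long noncoding RNAs. They were Mir99ahg, Malat1 and Kcnq1ot1. Of the long noncoding RNAs that fell, Mir99ahg, Mir142hg and Dleu2 are hosts of microRNA hairpins. Of 30 tested members of the nuclear and host-gene list, 5 fell and 0 rose (median log2 fold change -0.81). Mir99ahg, on chromosome 16 at 77236317 to 77773427, stood at 29.9, 26.8, 42.8 and 25.9 CPM in WT and at 5.56, 3.94, 6.49 and 4.96 in MLL-ENL, with no overlap (log2 fold change -2.58, SE 0.36, edgeR adjusted p = 0.000873). Kcnq1ot1, the imprinted antisense RNA of the Kcnq1 domain on chromosome 7 at 143203458 to 143296549, was at 24.3, 37.4, 35.1 and 33.7 CPM and then 8.71, 8.06, 7.49 and 5.24 (log2 fold change -2.14, SE 0.30, edgeR adjusted p = 0.000873). Malat1, an abundant RNA of nuclear speckles, varied more in WT, at 764, 626, 575 and 367 CPM, and was at 141, 104, 161 and 118 CPM in MLL-ENL (log2 fold change -2.15, SE 0.48, edgeR adjusted p = 0.0383). WT library 4 was the lowest of the WT group for Malat1. Mir142hg, the host of a blood-specific microRNA, was at 12.5 ± 3.20 and 2.68 ± 0.639 CPM, a log2 fold change of -2.22 whose call was lost with offsets for GC content and length (edgeR adjusted p = 0.0533). Dleu2, host of miR-16, was the fifth call, named after its values were seen, at 17.3 ± 1.62 and 7.05 ± 1.09 CPM (log2 fold change -1.29). Ino80dos, antisense to the remodeller gene Ino80d, was named by the size of its fall, at 15.5 ± 2.19 and 5.32 ± 1.98 CPM (log2 fold change -1.54). The counting strand is not given in the sources used here, so reads of an antisense RNA and of the gene it overlaps may not have been separated.

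In all, 12 called genes hold a RefSeq microRNA hairpin on their own strand, 6 among the higher and 6 among the lower. The mature products below are those of the hosts just described and of Huwe1, a ubiquitin ligase gene on chromosome X that rose from 42.2 ± 5.67 to 74.1 ± 4.74 CPM (log2 fold change 0.81, edgeR adjusted p = 0.0375). The let-7c, let-7f and miR-98 products are shown because hosts that moved in opposite directions carry microRNAs of 1 seed. The other products have different seeds and come from hosts that fell. Sequences are from RefSeq (GRCm38.p6), written 5′ to 3′, with the seed, bases 2 to 8, in capitals.
mmu-let-7c-5p (Mir99ahg, fell; chr16:77599672-77599693, plus strand): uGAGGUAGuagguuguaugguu
mmu-let-7f-5p (Huwe1, rose; chrX:151912353-151912374, plus strand): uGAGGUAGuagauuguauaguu
mmu-miR-98-5p (Huwe1, rose; chrX:151913229-151913250, plus strand): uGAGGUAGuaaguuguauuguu
mmu-miR-99a-5p (Mir99ahg, fell; chr16:77598940-77598961, plus strand): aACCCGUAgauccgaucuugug
mmu-miR-142a-3p (Mir142hg, fell; chr11:87756903-87756925, plus strand): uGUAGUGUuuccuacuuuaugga
mmu-miR-16-5p (Dleu2, fell; chr14:61631936-61631957, minus strand): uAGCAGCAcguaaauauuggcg
The let-7c of Mir99ahg and the let-7f and miR-98 of Huwe1 share the seed GAGGUAG. Host transcripts were measured here and mature microRNAs were not, so nothing is shown about their levels.

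Transcripts encoded by the mitochondrial genome had lower values in MLL-ENL. All 15 tested had a log2 fold change between -2.04 and -1.35 (median -1.54), 8 of them fell in the fit of all libraries and 15 in the fit of only the 2 groups, and none of the 15 had overlapping groups. The gene mt-Co1, for the catalytic subunit of cytochrome c oxidase, stood at 3930, 4296, 3852 and 3187 CPM in WT and at 1350, 1195, 1285 and 1189 in MLL-ENL (log2 fold change -1.60, SE 0.26, edgeR adjusted p = 0.00519). The ribosomal RNA mt-Rnr2 was at 5005 ± 1586 and 1313 ± 270 CPM (SD, n = 4, log2 fold change -1.93, edgeR adjusted p = 0.0418). Together these transcripts made up 2.00, 2.15, 1.62 and 1.32% of all counts in WT libraries 1 to 4 and 0.623, 0.539, 0.605 and 0.500% in MLL-ENL. WT library 4 was the lowest of WT and still held more than 2-fold the share of the highest MLL-ENL library.

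Some nuclear genes of respiration and of cytosolic translation fell as well. Of 68 oxidative phosphorylation genes of the nucleus, 6 fell and 0 rose (median log2 fold change -0.61), and 57 were called lower in the fit of the 2 groups, where 14.1% of all genes were. With the genes tested held the same, 7 fell without WT library 4 and 0 without any other 1 of the 8 libraries. The log2 fold change was above 0 in 6 of the 68. The highly expressed Atp5b, Atp5a1 and Sdha were not called, at log2 fold changes of 0.00, 0.10 and -0.05. Cox4i1, a structural subunit of cytochrome c oxidase, was at 669, 780, 616 and 581 CPM in WT and at 356, 363, 345 and 357 in MLL-ENL (log2 fold change -0.90, SE 0.21, edgeR adjusted p = 0.0405). The complex I subunit genes Ndufb5, Ndufb8 and Ndufb9 fell by 1.06, 0.97 and 1.04 on the log2 scale. All 79 cytosolic ribosomal protein genes had a negative log2 fold change, from -1.28 to -0.15 (median -0.85). Of them 37 fell in the fit of all libraries and 77 in the fit of the 2 groups. Rpl32 had the lowest p, at 1809, 2273, 1858 and 1511 CPM in WT and 875, 800, 754 and 837 in MLL-ENL (log2 fold change -1.19, SE 0.21, edgeR adjusted p = 0.0201). Rps3 and Rps7, for proteins of the small subunit, gave log2 fold changes of -1.15 and -1.18, and Rps7 gave -0.57 under the GC and length offsets. The 79 genes took 5.65, 6.77, 5.76 and 5.20% of counts in the WT libraries and 3.36, 3.30, 3.03 and 3.32% in the MLL-ENL libraries. The sign of each of these 3 list medians was the same with RLE scaling, with library totals and with offsets for GC content and length, which gave -0.71 for the ribosomal protein genes, -0.42 for the oxidative phosphorylation genes and -1.10 for the mitochondrially encoded ones.

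Ribosomal protein promoters are known for binding sites of ETS family factors such as GABP. A RefSeq promoter window of 250 bases before to 50 after the start was found for 28 of the 37 called genes. The ETS core CCGGAAG, searched on both strands, was in 13 of these (46.4%), in 39.7% of the windows of the whole ribosomal protein list and in 15.7% of the windows of 13348 tested genes. A match is a description of the letters and not a measured site. The 250 bases before the start of the 3 called ribosomal protein genes of lowest p that hold a match there are shown because they are promoters of genes that fell, with log2 fold changes of -1.18, -0.72 and -1.06. Sequences are from RefSeq (GRCm38.p6), written 5′ to 3′ on the gene's strand, with the ETS core or its reverse complement CTTCCGG in capitals.
Rps7 (chr12:28635954-28636203, minus strand): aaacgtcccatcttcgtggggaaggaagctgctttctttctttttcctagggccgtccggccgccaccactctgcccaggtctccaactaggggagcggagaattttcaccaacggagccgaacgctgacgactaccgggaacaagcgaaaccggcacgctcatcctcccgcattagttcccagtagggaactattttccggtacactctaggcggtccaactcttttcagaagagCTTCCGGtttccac
Rpsa (chr9:120127516-120127765, plus strand): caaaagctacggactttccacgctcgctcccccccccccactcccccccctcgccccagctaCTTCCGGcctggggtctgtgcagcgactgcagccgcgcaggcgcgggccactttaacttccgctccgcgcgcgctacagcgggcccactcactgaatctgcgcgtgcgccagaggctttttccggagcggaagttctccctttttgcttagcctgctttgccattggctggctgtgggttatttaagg
Rps18 (chr17:33955666-33955915, minus strand): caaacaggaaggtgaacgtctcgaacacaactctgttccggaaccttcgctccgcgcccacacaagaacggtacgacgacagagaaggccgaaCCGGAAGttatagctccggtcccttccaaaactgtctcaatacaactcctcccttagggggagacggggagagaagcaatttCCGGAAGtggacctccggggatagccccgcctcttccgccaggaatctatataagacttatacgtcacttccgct
Rpsa and Rps18 were chosen after their values were seen. In Rps7 the match began 14 bases before the start, in Rpsa 188, and in Rps18 there were 2 matches, the nearer beginning 75 bases before it.

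**Figure D3:**
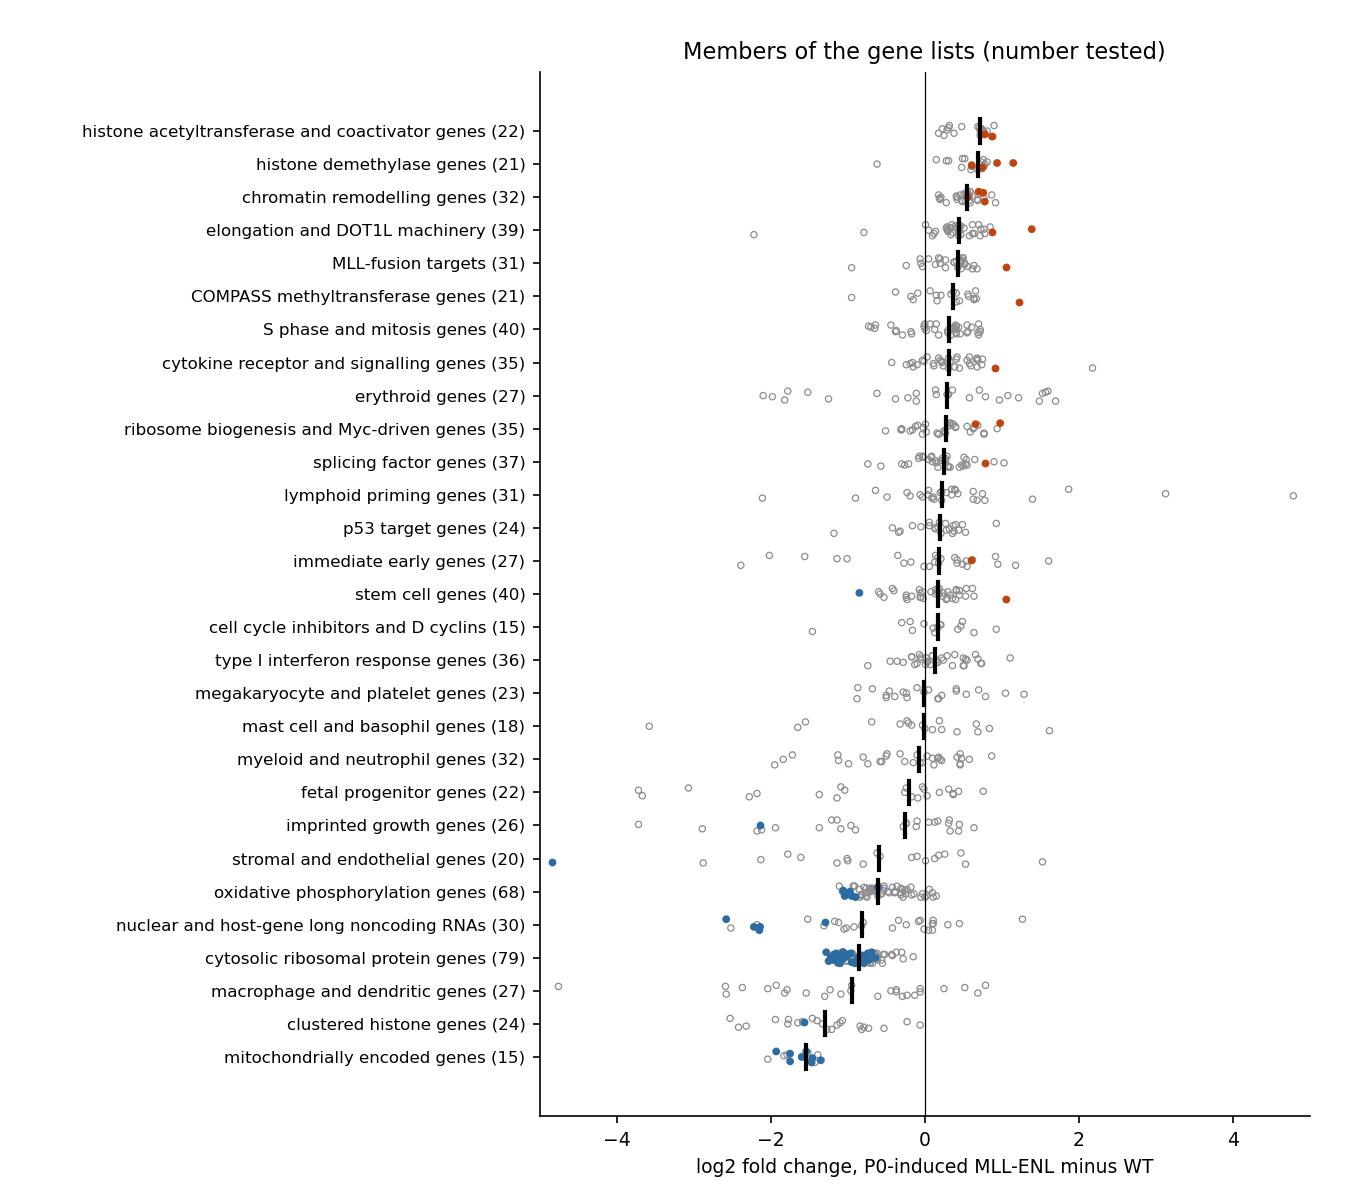
Log2 fold change, P0-induced MLL-ENL minus WT (x axis), of every tested member of the 29 gene lists (rows, with the number tested), with called members filled, others open and the list median as a bar. Filled points on the higher side number 4 each in the histone demethylase and chromatin remodelling lists, and 37 ribosomal protein, 8 mitochondrially encoded and 6 oxidative phosphorylation genes are filled on the lower side.

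Transcript length and several RNA classes moved with the groups. Among genes averaging 3 or more in log2 CPM, those whose median annotated transcript is under 500 bases had a median log2 fold change of -0.70, those of 2000 to 4000 bases 0.29 and those of 4000 to 8000 bases 0.43, and under the GC and length offsets they were -0.13, 0.04 and 0.09. The median transcript was 780 bases for called lower coding genes, 1753 for called higher ones and 1513 for all coding genes tested. Genes with transcripts of 4000 bases or more took 2.90 to 3.56% of counts in WT and 4.06 to 4.42% in MLL-ENL, and long noncoding RNAs 0.725 to 0.879% and 0.538 to 0.586%. The part of transcript length in the results was not tested beyond the offsets. In bulk samples fewer cells of a type and less RNA per cell cannot be told apart.

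**Figure D4:**
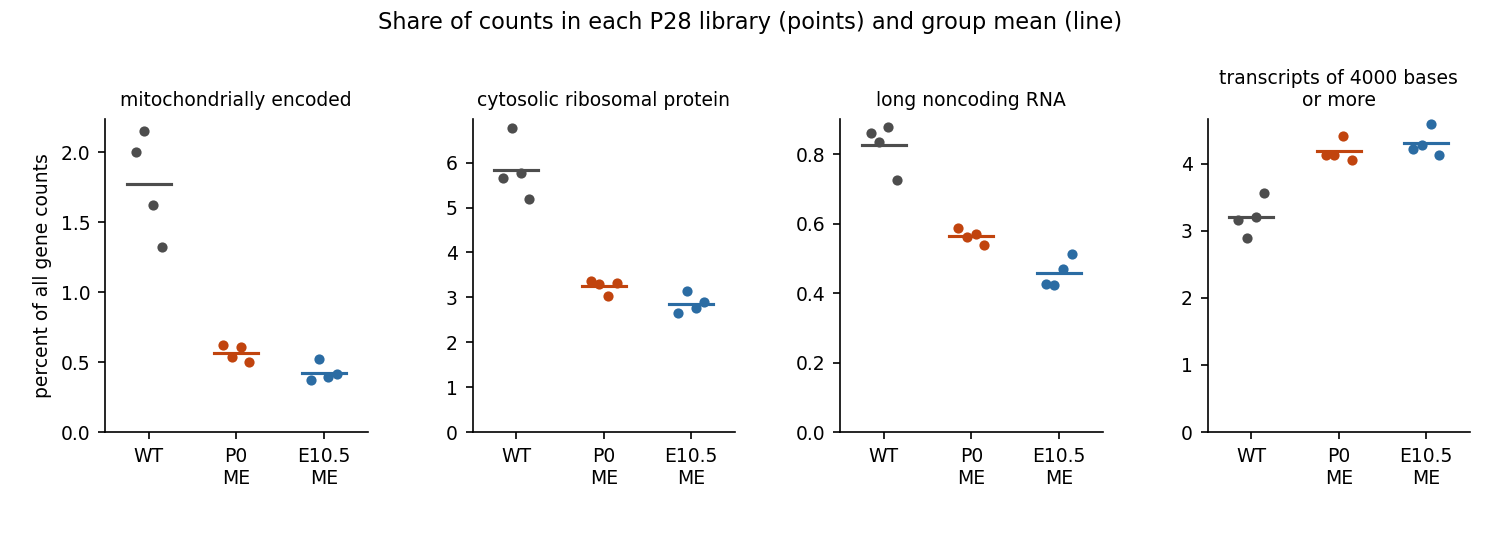
Percent of all gene counts (y axis, from 0) that fell on mitochondrially encoded genes, cytosolic ribosomal protein genes, long noncoding RNAs and genes with transcripts of 4000 bases or more, in each WT, P0-induced (P0 ME) and E10.5-induced (E10.5 ME) library at P28, with the group mean as a line. The WT libraries lie above the P0-induced ones in the first 3 panels and below them in the last.

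Other falls were in single genes of varied function. Prdx4, a peroxiredoxin of the endoplasmic reticulum, was at 160, 205, 184 and 170 CPM in WT and at 78.1, 80.8, 80.2 and 93.1 in MLL-ENL (log2 fold change -1.12, SE 0.18, edgeR adjusted p = 0.00497). Pde4d, a cyclic AMP phosphodiesterase, was at 38.3, 37.3, 28.2 and 33.3 CPM and then 15.0, 12.0, 14.9 and 11.8 (log2 fold change -1.35, SE 0.22, edgeR adjusted p = 0.00497). Both pairs of groups were well apart. Among 24 clustered histone genes 1 fell, the linker histone gene H1f5, at 28.4 ± 10.4 and 9.55 ± 1.31 CPM (edgeR adjusted p = 0.0484), and 0 rose (median log2 fold change -1.30). The transcript 4632427E13Rik, outside the naming rule, had the lowest adjusted p of all (edgeR, 0.000212), with a log2 fold change of -1.59.

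Sva, a seminal vesicle protein gene on chromosome 6 at 42038394 to 42042851, had 0 counts in each of the 4 WT libraries and 80, 60, 64 and 38 counts in the 4 P0-induced libraries. Taking 3 counts per library as the floor, it was at least 15.4-fold higher in MLL-ENL (edgeR adjusted p = 0.000873). Its level was low, at 1.06 ± 0.274 CPM. E10.5-induced MLL-ENL libraries at P28 held 37, 110, 134 and 61 counts, the P0 MLL-ENL group (E10.5 ME) 259 to 352 and the RLT Vav Txp group 14 to 182, and the P0 WT libraries held 0. Counts of Sva thus followed the MLL-ENL label in all 24 libraries. Gimap1os, on chromosome 6 at 48738346 to 48741444 and named after its values were seen, ran the other way, at 26.4, 19.2, 17.2 and 12.8 CPM in WT and 7.91, 7.96, 8.50 and 7.53 in MLL-ENL (log2 fold change -1.24, edgeR adjusted p = 0.0383).

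In the lists of erythroid, macrophage and dendritic, and myeloid and neutrophil genes edgeR called 0 members. At an unadjusted p under 0.05 they held 3, 0 and 1 higher and 2, 6 and 1 lower, and DESeq2 called 2, 0 and 0 higher and 0, 4 and 1 lower. Over all 23059 genes 4648 had an unadjusted p under 0.05, and DESeq2 called 544 higher and 1233 lower. With only the 2 groups fitted 7 of 27 erythroid genes were called lower and 1 higher, 10 of 23 macrophage and dendritic genes lower and 0 higher, and 5 of 31 myeloid and neutrophil genes lower and 2 higher, where 14.1% of all genes were lower and 13.8% higher. Hbb-bt, an adult beta-globin gene, was at 225, 264, 273 and 187 CPM in WT and at 88.5, 100, 73.1 and 68.3 in MLL-ENL (log2 fold change -1.52, edgeR adjusted p = 0.152 with all libraries and 6.64e-06 with the 2 groups). Lyz2, the lysozyme of myeloid cells, was at 574 ± 58.2 and 289 ± 15.5 CPM (edgeR adjusted p = 0.352 and 6.07e-06), and C1qa, a complement gene of macrophages chosen after its values were seen, at 6.73 ± 3.07 and 1.65 ± 0.438 CPM (edgeR adjusted p = 0.206 and 0.00059). The WT groups were higher in all 3 without overlap. Other genes went the other way. Mpo of myeloid cells was at 418 ± 47.8 CPM in WT and 576 ± 126 in MLL-ENL (edgeR adjusted p = 0.72 and 0.0384). Log2 fold changes were above 0 in 16 of 27 erythroid genes (median 0.29) and 14 of 32 myeloid and neutrophil genes (median -0.08). Of 27 macrophage and dendritic genes 4 were above 0 (median -0.95). Summed over each list, macrophage and dendritic genes ran from 433 to 515 CPM in WT and 346 to 425 in MLL-ENL, myeloid and neutrophil genes from 2065 to 2330 and 1806 to 2295, erythroid genes from 2697 to 3068 and 2388 to 3415, and lymphoid priming genes from 2448 to 2785 and 2575 to 3408. The part of such cells or of their free RNA in the falls above was not tested. Adipoq, a fat cell gene, was the 1 call among 20 stromal and endothelial genes, at 0.387 to 0.749 CPM in WT, at 0 in 3 of the 4 MLL-ENL libraries and at 0.0700 CPM in library 2.

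The timing of induction was addressed by comparing P0-induced with E10.5-induced MLL-ENL directly, both at P28. Age at induction and time since induction both differ between these groups and cannot be told apart. EdgeR called 11 of 23059 genes (0.0477%), 6 higher (0.0260%) and 5 lower (0.0217%) after P0 induction, with 998 at an unadjusted p under 0.05. Leaving out P0-induced library 4 left 4 calls with the filter run again and 10 with the tested genes kept, leaving out P0-induced library 3 left 6 and library 1 left 7 either way, leaving out E10.5-induced library 4 gave 15 either way, and with only these 2 groups fitted 1147 were called. These 11 genes were chosen by that comparison, and both MLL-ENL groups are set against the same WT libraries. In 9 of the 11, all except Ehd3 and Paqr5, the P0-induced and WT libraries overlapped.

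Gata3, a transcription factor of T cells that is also expressed in stem cells, stood at 23.2, 18.9, 20.3 and 22.7 CPM in P0-induced libraries, at 2.86, 5.18, 5.27 and 4.37 in E10.5-induced ones and at 24.1, 19.1, 27.0 and 16.8 in WT (P0-induced minus E10.5-induced log2 fold change 2.26, SE 0.31, edgeR adjusted p = 0.000900). Mmrn1, a platelet and stem cell gene for multimerin, was at 89.4, 95.3, 107 and 100 CPM after P0 induction, at 29.1, 23.1, 29.7 and 21.4 after E10.5 induction and at 123, 108, 99.7 and 128 in WT (log2 fold change 1.92, edgeR adjusted p = 0.0129). E10.5-induced libraries were thus the low ones for both genes. Klhl4, C1qtnf6, Rnf217 and Paqr5 were the other higher calls, with log2 fold changes of 4.93, 2.15, 1.67 and 1.44. Over the 16 fits that left out 1 library, with the filter run again or the tested genes kept, Klhl4 and Gata3 kept the call in 16, Paqr5 in 9, C1qtnf6 and Mmrn1 in 5 and Rnf217 in 0. Paqr5, a membrane progestin receptor gene, was at 38.9 to 46.8 CPM after P0 induction, above both WT at 24.6 to 31.5 and E10.5 induction at 13.1 to 19.0.

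Pcdh7, a protocadherin gene, was at 2.78, 1.80, 2.69 and 2.09 CPM after P0 induction, at 33.1, 43.3, 46.4 and 24.0 after E10.5 induction and at 1.87, 1.76, 4.44 and 2.98 in WT (P0-induced minus E10.5-induced log2 fold change -3.97, SE 0.39, edgeR adjusted p = 3.34e-06). Tifab, an inhibitor of TRAF6 signalling, was at 21.3, 13.1, 15.4 and 18.0 CPM after P0 induction, at 85.1, 63.8, 92.3 and 94.9 after E10.5 induction and at 7.46, 11.2, 19.2 and 16.2 in WT (log2 fold change -2.31, SE 0.27, edgeR adjusted p = 8.04e-05). E10.5-induced libraries were the high ones here. Pde3b, a cyclic nucleotide phosphodiesterase gene, Dbn1, for the actin-binding protein drebrin, and Ehd3, for an endosomal ATPase, were the other lower calls, with log2 fold changes of -1.63, -2.19 and -2.15. Pcdh7 and Tifab kept the call in all 16 fits with 1 library left out, Pde3b in 15, Ehd3 in 13 and Dbn1 in 11. Ehd3 was at 6.00 to 10.7 CPM after P0 induction, between WT at 3.10 to 5.24 and E10.5 induction at 28.1 to 41.8.

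**Figure D5:**
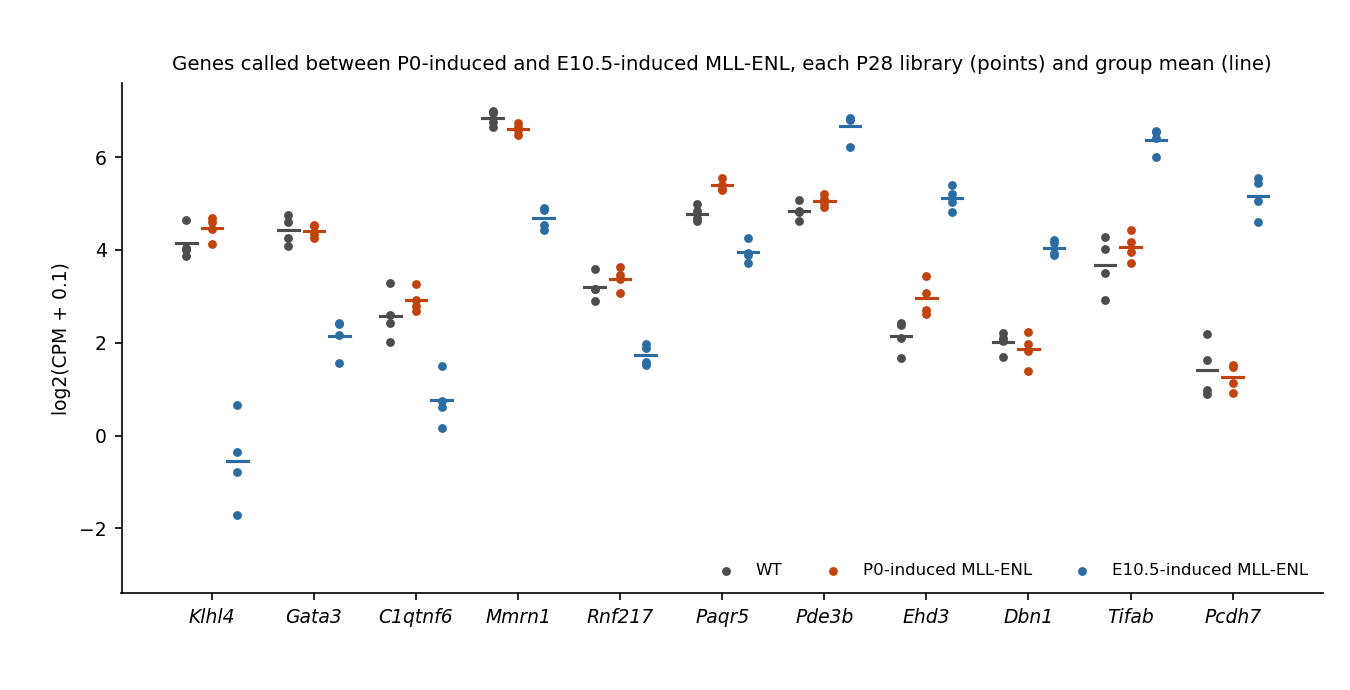
Level of the 11 genes called between P0-induced and E10.5-induced MLL-ENL, as log2(CPM + 0.1) on the y axis, with 1 point per library in WT, P0-induced (P0 ME) and E10.5-induced (E10.5 ME) cells at P28. The P0-induced points overlap the WT points in 9 of the 11 genes, and the E10.5-induced points lie apart from the P0-induced ones in all 11.

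Kmt2a, called against WT, had a mean of 41.6 ± 4.51 CPM in WT, 97.9 ± 6.48 after P0 induction and 56.4 ± 2.12 after E10.5 induction (SD, n = 4 each). The P0-induced level was thus the highest of the 3, and its difference from E10.5 induction was not called (log2 fold change 0.80, SE 0.17, edgeR adjusted p = 0.102).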

How the data were processed

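RNA-seq libraries from LSK cells were made with a Qiagen RNeasy Plus and Clontech SMARTer workflow, per the labels' protocols. The design text describes the sort as Lineage-KIT+, whereas the sample labels say LSK. The authors deposited raw read counts per Ensembl gene for 24 libraries. STAR 2.7.9a, Subread, featureCounts 2.0.3 and GRCm38 are named per the submitters' processing notes. Strand setting, annotation release and treatment of reads with several matches are not given in the sources used here.

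The table had 55774 entries, and 287 identical repeats of 168 IDs were dropped. Genes were kept by filterByExpr (minimum count 10), scaled by TMM and fitted with edgeR 4.0.16 (R 4.3.3, robust quasi-likelihood test, 24 libraries, 6 group means, 18 residual degrees of freedom), with Benjamini-Hochberg adjustment over 23059 genes and a threshold of 0.05. Fits used all groups so that they share 1 estimate of spread. The smallest P28 WT library gave 31.2 reads per CPM. Reads are not independent molecules, so counting limits cover counting error only. No 2 of the 8 libraries agreed within sampling noise. Transcript lengths and gene positions are from GENCODE M21, which held 55227 of 55487 IDs.

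Named genes were the 12 largest rises and falls (mean log2 CPM of at least 3, groups apart), the 6 of lowest p in each direction, up to 12 called under every other scaling, filter and model tried, up to 4 called and 3 uncalled members per list, genes called between induction times, and checks. Predicted models, pseudogenes, receptor genes and sex markers were left out. Members, lists and rules were chosen with earlier results of these data known. Alternatives were RLE and total scaling, DESeq2 1.42.0, limma 3.58.1 voom weights, other filters, fits of fewer groups, a replicate block, GC and length offsets (mgcv 1.9.3) and leaving out libraries. The fit of all libraries, and not the alternatives, was run on simulated data. The simulation gave each gene the same spread in every group, which does not hold for WT and P0-induced MLL-ENL here. The human transgene was not analysed here. Some genes are not reported here.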

Additional observations from a re-analysis of the deposited data

Results flagged for a closer look

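Of 177 groups of 4 values tested, 10 held a library far from the other 3, and chance alone flags about 1 in 20 groups. In P0-induced MLL-ENL, library 3 had 108 CPM of Kmt2a where the others had 93.5 to 95.6, and 128 CPM of Stk38 where they had 110 to 112. P0-induced library 2 had 0.0700 CPM of Adipoq and the others 0. In WT, library 4 had 44.3 CPM of Vps54 against 31.4 to 32.6 and 80.3 CPM of Chd1 against 60.0 to 61.0. WT library 2 had 24.4 CPM of Kmt2c against 33.2 to 34.6, 63.0 CPM of Stk38 against 72.7 to 74.2 and 231 CPM of Dpy30 against 174 to 179. WT library 1 had 33.8 CPM of Huwe1 against 44.0 to 45.9, and WT library 3 had 11.3 CPM of C1qa against 4.84 to 5.49.

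The 11 genes below differed between the induction times in the direct edgeR test, given as P0-induced minus E10.5-induced log2 fold changes. Higher after P0 induction were Klhl4 (4.93), Gata3 (2.26), C1qtnf6 (2.15), Mmrn1 (1.92), Rnf217 (1.67) and Paqr5 (1.44). Lower were Pcdh7 (-3.97), Tifab (-2.31), Dbn1 (-2.19), Ehd3 (-2.15) and Pde3b (-1.63).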

How the results depend on the processing

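The 362 calls against WT became 9 at an adjusted p under 0.01, 206 with no filter on low counts, 601 with at least 10 counts in 12 libraries, 1777 with DESeq2, 4998 and 4763 with voom weights per sample and per group, 5196 with only the 2 groups and 3944 with the P28 libraries. The share of calls that were higher, 31.5%, became 13.8% with RLE factors, 14.4% with library totals, 49.6% with the 2 groups and 57.1% with the P28 libraries. The 11 calls between induction times became 7 at 0.01, 87 with DESeq2, 2326 and 1696 with voom weights per sample and per group, 1147 with the 2 groups and 62 with the P28 libraries. The cause of these shifts was not tested. Leaving out 1 library gave 7 to 649 calls against WT and 4 to 15 between induction times. With the genes of the full fit kept, an alternative added after seeing the data, the ranges were 8 to 691 and 6 to 15. Same-numbered libraries did not deviate together (correlations of 0.0944, -0.0730, -0.0419 and -0.00641), so the numbers were not taken to pair samples. The replicate block on the 20 numbered libraries gave 946 calls, against 802 for those libraries with no replicate block, and 14 against 14 between induction times. With GC and length offsets Flt3 turned to -0.14, Meis1 to -0.06 and the stem cell median to -0.09. The megakaryocyte and platelet median, -0.01, turned to 0.10 and 0.06 with voom weights per sample and per group, 0.01 with the P28 libraries, and ran from -0.12 to 0.06 with 1 library left out, with 0.03, 0.01 and 0.00 among the values with the genes kept. The mast cell and basophil median, -0.01, turned to 0.11 with voom group weights, 0.12 with the replicate block, and ran from -0.18 to 0.02 with 1 library left out (-0.19 to 0.01 with the genes kept, 0.00 among them). Genes of a few counts per library are limited by depth, as 31.2 reads make 1 CPM in the smallest WT library.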

Other observations

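Over all 23059 genes tested, 4648 had an unadjusted p under 0.05 in edgeR, and DESeq2 called 544 higher and 1233 lower. The list counts below are to be read beside these. Cell cycle genes held 0 edgeR calls among 40 S phase and mitosis genes, with 9 higher and 4 lower at an unadjusted p under 0.05, and DESeq2 called 0 higher and 3 lower. Their summed level was 4905, 5607, 6287 and 5496 CPM in WT libraries 1 to 4 and 5784, 5953, 7416 and 7708 CPM in the P0-induced libraries, and the groups overlapped. Of 24 p53 target genes edgeR and DESeq2 called 0, with 2 higher and 1 lower at an unadjusted p under 0.05. Mast cell and basophil genes summed to 1065 to 1317 CPM in WT and 734 to 860 CPM in P0-induced MLL-ENL with no overlap, although edgeR called 0 of 18 members, with 0 higher and 1 lower at an unadjusted p under 0.05 and 1 higher and 2 lower by DESeq2.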
